A study of Homo sapiens with 6 samples.

Results

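Aldo-keto reductases and aldehyde dehydrogenases were examined in SiHa PR cells with and without P4HA3 overexpression. The 10 genes, AKR1A1, AKR1B1, AKR1B10, AKR1C1, AKR1C2, AKR1C3, ALDH1A1, ALDH1A3, ALDH3A1 and ALDH3A2, were taken by symbol from the 60664 genes of the count table, and every one of them was found. SiHa is an established human cervical squamous carcinoma line, and SiHa PR are the parental cells of a derived line that metastasizes to lymph nodes. RNA-seq counts came from 3 control libraries, labelled SiHa PR, and 3 libraries labelled SiHa PR P4HA3. P4HA3 encodes an alpha subunit of the collagen prolyl hydroxylase. According to the study's methods it was expressed from a lentiviral vector, and the labels do not say whether the control cells carried an empty vector. Nothing in the labels says that the samples of a group were separate cultures, so the p-values measure the spread between these samples only.

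Both families deal with the carbonyl group. Aldo-keto reductases use NADPH to reduce aldehydes and ketones, among them glucose, steroids, prostaglandins and the products of lipid peroxidation, to alcohols. Aldehyde dehydrogenases use NAD(P)+ to oxidize aldehydes to acids, including retinaldehyde to retinoic acid and long-chain fatty aldehydes to fatty acids. AKR1B10 and the AKR1C genes are known targets of the oxidative stress factor NRF2, and several members clear reactive aldehydes such as 4-hydroxynonenal.

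Total counts ran from 21773488 to 24939948 per library. P4HA3 itself had 86, 62 and 93 counts in control replicates 1 to 3 and 45042, 44775 and 49097 counts in the overexpressing replicates 1 to 3, which fits the labels. Of the 10 epithelial and cervical carcinoma markers examined, 8 had at least 10 counts in every library. KRT5, at 3 to 4 counts, and TP63, at 3 to 13 counts, did not. The level of all 10 summed was 11840 to 13480 CPM in control cells and 11090 to 12640 CPM in overexpressing cells. CPM are counts as a share of the library, scaled by the trimmed mean of M values (TMM). KRT17 and KRT7, with control means of 5333 and 4325 CPM, made up most of this sum. EPCAM stood at 5.76 and KRT19 at 0.84 CPM in control. With overexpression 4 of the 8 markers tested, KRT17, KRT18, CDH1 and CDKN2A, fell and 0 rose. Of all genes tested 20.8% were called, 9.36% higher and 11.4% lower. When the trends of each library on GC content and transcript length were removed, KRT18 and CDH1 were still lower, KRT17 (adjusted p = 0.303) and CDKN2A (adjusted p = 0.272) were not called, and KRT7 was higher (adjusted p = 0.00163, all by edgeR). The growth protocol in the labels describes a smooth muscle tissue instead. Of 8 smooth muscle markers only SMTN and SYNM reached 10 counts in every library, the summed level was 140.2 to 147 CPM against 152.8 to 165.3 CPM, and DES, MYH11, CNN1 and LMOD1 stood at 0 to 9 counts and MYOCD at 0 to 10. ACTG2, a smooth muscle actin, had 0, 1 and 30 counts in control and 40, 1 and 44 counts in overexpressing replicates 1 to 3 (adjusted p = 0.305 by edgeR). SYNM was higher with overexpression by 0.29 on the log2 scale (adjusted p = 0.0391 by edgeR's quasi-likelihood test, Benjamini-Hochberg adjusted). The part of these markers in the results for the reductases and dehydrogenases was not tested.

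The 3 AKR1C genes lie side by side on chromosome 10 and are so alike that the assignment of reads bears on their values. AKR1C1 and AKR1C2 differed at 19 of 972 coding bases (98.0% identical), with a longest identical run of 189 bases, whereas AKR1C3 differed from AKR1C1 at 83 and from AKR1C2 at 87 of them. The following 60 bases, coding bases 103 to 162 in exon 2 of the GENCODE canonical transcripts, are the 60-base window that holds the most differences between AKR1C1 and AKR1C2, with 10. Capitals mark each position at which the 3 genes are not all alike. AKR1C1 is shown from chr10:4965932-4965991 (plus strand), AKR1C2 from chr10:5001604-5001663 (minus strand) and AKR1C3 from chr10:5096428-5096487 (plus strand), all on GRCh38.
AKR1C1: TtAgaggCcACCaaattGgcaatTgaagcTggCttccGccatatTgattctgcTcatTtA
AKR1C2: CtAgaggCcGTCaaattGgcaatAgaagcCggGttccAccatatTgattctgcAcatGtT
AKR1C3: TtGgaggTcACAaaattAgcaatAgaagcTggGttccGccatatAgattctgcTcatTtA
Of all 150-base windows of the canonical AKR1C2 transcript, 16.5% occurred without a mismatch in that of AKR1C1, and 7.91% of those of AKR1C1 occurred in AKR1C2. By its own bases, a read from such a window cannot be given to one gene. The libraries were sequenced as paired ends, so its mate may still cover a differing base. How the counting treated such reads is not given in the sources used here.

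The likeness extends upstream of the genes. RefSeq promoters on GRCh38.p14 were matched for 8 of the 10 members, with 11 start sites. The 250 bases before the starts of AKR1C1 and AKR1C2 were identical at 245 of 246 aligned bases, and those of AKR1C1 and of the start of AKR1C3 at 5094414 at 79.1% of their aligned bases. The sequences before AKR1B1, the member with the largest fall, and before AKR1C1 follow, with the CCAAT box in capitals (on the opposite strand in AKR1C1, where it reads ATTGG). That of AKR1B1 is at chr7:134459101-134459350 on the minus strand and that of AKR1C1 at chr10:4963165-4963414 on the plus strand.
AKR1B1: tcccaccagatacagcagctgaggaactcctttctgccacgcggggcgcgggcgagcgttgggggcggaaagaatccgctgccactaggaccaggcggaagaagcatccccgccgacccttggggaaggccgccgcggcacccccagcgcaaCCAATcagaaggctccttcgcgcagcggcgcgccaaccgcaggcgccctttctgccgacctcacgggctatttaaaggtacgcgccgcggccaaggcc
AKR1C1: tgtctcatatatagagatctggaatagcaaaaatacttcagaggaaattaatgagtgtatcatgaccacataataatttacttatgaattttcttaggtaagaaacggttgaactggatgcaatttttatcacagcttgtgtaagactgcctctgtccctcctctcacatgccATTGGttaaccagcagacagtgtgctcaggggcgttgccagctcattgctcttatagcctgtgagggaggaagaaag
The CCAAT box was found in 8 of the 11 member windows, and in 32.0% of all 34788 promoters of the same length searched on both strands. The windows without it were that of AKR1A1 and a second one each of AKR1B1 and ALDH3A2. It began 98 bases before the start of AKR1B1, 77 before that of AKR1C1 and 81 before that of AKR1C2. The AKR1C windows, all with a CCAAT box, were identical to each other at 76.8% to 99.6% of their aligned bases. The 11 windows are therefore not independent of each other. The core of the antioxidant response element, TGACNNNGC, was in 10.9% of all promoters and in none of the 11 member windows, which says only that these letters are absent from these windows. The AP-1 site TGACTCA was in 4.21% of all promoters and in none of the 11. The letters TATAAA (10.8% of promoters) were found before the AKR1C3 start at 5048781, TGGAAA (18.1%) before the ALDH3A2 start at 19648136, and CACGTG (6.31%) before AKR1A1 and ALDH3A2. The CCAAT box was thus held by members that rose, fell or did not pass the test.

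Levels differed widely between the members. Per kilobase of the canonical transcript, AKR1B1 stood at 2371 CPM per kb in control cells, followed by AKR1C3 at 464, AKR1C2 at 64.4, AKR1A1 at 56.8 and AKR1C1 at 52.3 CPM per kb. ALDH3A2 at 34.3, ALDH1A3 at 19.1 and ALDH3A1 at 16.5 CPM per kb made up the lower range, and AKR1B10 at 0.276 and ALDH1A1 at 0.113 CPM per kb were barely detected. The middle of this order depends on the length used, because the canonical AKR1C1 transcript has 6543 bases and a coding part of 972. Per coding kilobase AKR1C1 moved ahead of AKR1C2 and AKR1A1, at 352 CPM per kb in control cells against 213 CPM per kb for AKR1C2.

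With P4HA3 overexpression 3 members fell, AKR1B1, AKR1C1 and ALDH3A1, and 1 rose, ALDH1A3. The other 5 tested members, AKR1A1, AKR1B10, AKR1C2, AKR1C3 and ALDH3A2, did not pass the test (adjusted p under 0.05, by the quasi-likelihood test of edgeR, adjusted by Benjamini-Hochberg over all genes tested), and ALDH1A1 was too low to be tested. Among all 15130 genes tested, 20.8% were called changed, 9.36% higher and 11.4% lower. The median log2 fold change was -0.11 over the 9 tested members and 0.01 over all genes tested. In bulk RNA a lower level in every cell and a smaller share of cells that express the gene cannot be told apart. The groups did not overlap for the same 4 members, and for 40.1% of all genes tested.

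**Figure D1:**
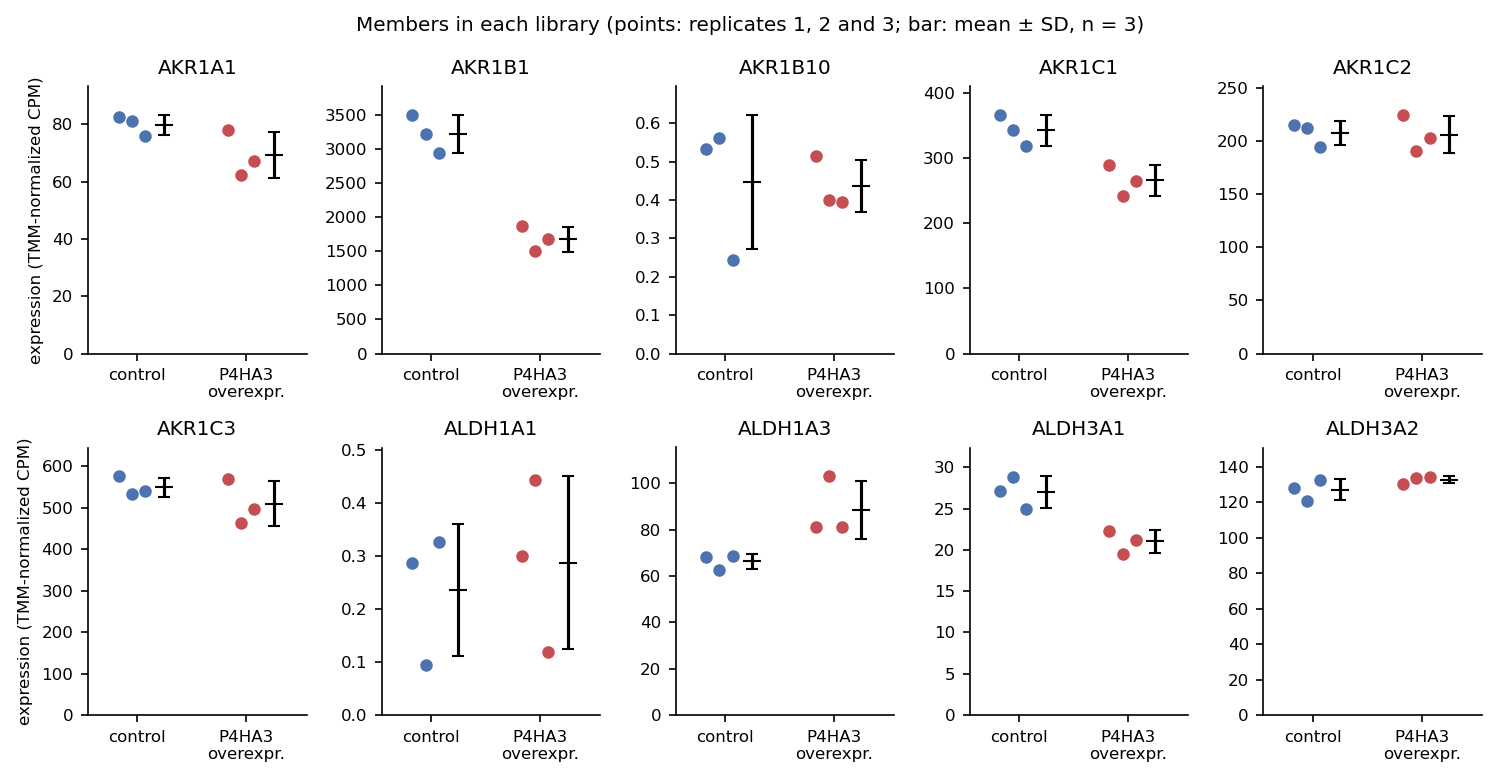
Expression of the 10 members in TMM-normalized CPM (vertical axes, each from 0) in the 3 control libraries (blue) and the 3 P4HA3-overexpressing libraries (red). Points are replicates 1, 2 and 3 from left to right and bars are the mean ± SD of 3 libraries. AKR1B1, AKR1C1 and ALDH3A1 lie lower and ALDH1A3 higher in all 3 overexpressing libraries than in any control library.

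AKR1B1, aldose reductase, catalyses the first step of the polyol pathway, in which glucose becomes sorbitol. The gene lies at chr7:134442356-134459284 on the minus strand. It had 85544, 68843 and 72086 counts in control replicates 1 to 3, which is 3509.5, 3228.1 and 2943 CPM. With overexpression it had 43575, 33764 and 42550 counts, or 1869.2, 1500.1 and 1675.9 CPM. The highest overexpressing library was thus well below the lowest control library. The mean went from 3227 ± 283 to 1682 ± 185 CPM (SD, n = 3 each), or 52.1% of control. This was a log2 fold change of -0.94 (SE 0.0948, 95% interval -1.15 to -0.73, adjusted p = 0.000573 by edgeR's quasi-likelihood test, Benjamini-Hochberg adjusted).

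AKR1B1 was the 14th most abundant gene in control cells, and its fall of 1545 CPM was the largest of any gene in the table under TMM normalization. By log2 fold change it ranked 156th from the bottom of all genes tested and by p-value 33rd. Its call held under all 17 alternative analyses, including each library left out in turn, with log2 fold changes between -1.02 and -0.83 and adjusted p-values between 1.16e-36 and 0.0135. SORD, sorbitol dehydrogenase, which carries out the second polyol step, stood at 58.1 ± 3.50 CPM in control and 57.2 ± 2.88 CPM in overexpressing cells (log2 fold change -0.02, adjusted p = 0.81). The ratio of AKR1B1 to SORD counts was 56.5, 57.0 and 52.9 in control replicates 1 to 3 and 30.9, 27.1 and 30.1 in the overexpressing replicates. A two-sided exact permutation test on this ratio gave p = 0.1 (0.133 after Benjamini-Hochberg adjustment over the 4 ratios compared), and 0.1 is the smallest p that 3 against 3 libraries allow.

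AKR1B10, a near relative of AKR1B1 that reduces retinaldehyde and aliphatic aldehydes and lies on the same chromosome (chr7:134527567-134541412, plus strand), was barely expressed. It had 13, 12 and 6 counts in control and 12, 9 and 10 counts in overexpressing replicates 1 to 3. The groups overlapped, and the 95% interval of the log2 fold change, -0.83 to 0.79, shows how little these counts can tell. The canonical AKR1B1 and AKR1B10 transcripts were identical at 76.7% of their aligned bases, so reads of the abundant gene are unlike those of the scarce one at many positions. AKR1B10 was 94.3% identical to AKR1B15, which had 0 to 4 counts per library.

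AKR1A1, aldehyde reductase, a broad enzyme for glucuronate and other aldehydes, lies at chr1:45550543-45570049 on the plus strand. It stood at 82.5, 81.2 and 75.9 CPM in control and at 78.2, 62.3 and 67.3 CPM in overexpressing replicates 1 to 3, and overexpressing replicate 1 lay within the control range. The log2 fold change was -0.21 (95% interval -0.39 to -0.02, unadjusted p = 0.0312 by edgeR), which did not pass after adjustment (adjusted p = 0.0964). Without overexpressing replicate 1 it was -0.30 and passed (adjusted p = 0.00568). Adjusted p-values ran up to 0.594 over the alternatives.

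The AKR1C enzymes are hydroxysteroid dehydrogenases. AKR1C1 inactivates progesterone at its 20-keto group, AKR1C2 reduces dihydrotestosterone, and AKR1C3 makes testosterone from androstenedione and converts prostaglandin D2. Only AKR1C1 of the 3 passed the test, and it fell.

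AKR1C1 (chr10:4963253-4983283, plus strand) had 8917, 7328 and 7791 counts in control replicates 1 to 3, or 365.8, 343.6 and 318.1 CPM. With overexpression it had 6755, 5449 and 6721 counts, or 289.8, 242.1 and 264.7 CPM. All 3 overexpressing libraries were below all 3 control libraries. The mean went from 343 ± 23.9 to 266 ± 23.9 CPM (SD, n = 3 each), or 77.5% of control. On the log2 scale the fold change was -0.37 (SE 0.0768, 95% interval -0.54 to -0.20, adjusted p = 0.0117 by edgeR's quasi-likelihood test, Benjamini-Hochberg adjusted). The call was lost without control replicate 1 (adjusted p = 0.0638), control replicate 2 (0.0693) or overexpressing replicate 3 (0.0541), while the log2 fold change stayed between -0.53 and -0.31 over the 17 alternatives, with adjusted p-values down to 4.69e-06.

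AKR1C2 (chr10:4987775-5018031, minus strand) stood at 215.0, 212.0 and 194.1 CPM in control and at 224.7, 190.2 and 203.0 CPM in overexpressing replicates 1 to 3. The groups overlapped, with an overexpressing library both at the top and at the bottom. The log2 fold change was -0.01 with a 95% interval of -0.16 to 0.15 (adjusted p = 0.949 by edgeR).

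AKR1C3 (chr10:5035354-5107686, plus strand) stood at 576.6, 533.4 and 539.7 CPM in control and at 569.0, 464.2 and 498.5 CPM in overexpressing replicates 1 to 3. Overexpressing replicate 1 lay among the control libraries and the other two below them. It had a log2 fold change of -0.11 (95% interval -0.28 to 0.06, adjusted p = 0.326 by edgeR). Without overexpressing replicate 1 it was -0.19 and passed (adjusted p = 0.0308, against up to 0.716 over the alternatives).

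The difference between AKR1C1 and its neighbours was also examined as count ratios, which do not depend on library size. For each AKR1C2 count there were 1.70, 1.62 and 1.64 AKR1C1 counts in control replicates 1 to 3 and 1.29, 1.27 and 1.30 in overexpressing replicates 1 to 3. The ratios did not overlap, and their spread within a group was small (1.65 ± 0.0423 against 1.29 ± 0.0157, SD, n = 3 each). The log2 difference was -0.36, with a two-sided exact permutation p of 0.1, again the lowest possible, and 0.133 after Benjamini-Hochberg adjustment over the 4 ratios. The ratio of AKR1C1 to AKR1C3 counts also did not overlap (0.623 ± 0.0293 against 0.521 ± 0.0109, exact permutation p = 0.1, adjusted 0.133), and that of AKR1C3 to AKR1C2 counts did (2.66 ± 0.133 against 2.48 ± 0.0491, exact permutation p = 0.2, adjusted 0.2).

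**Figure D2:**
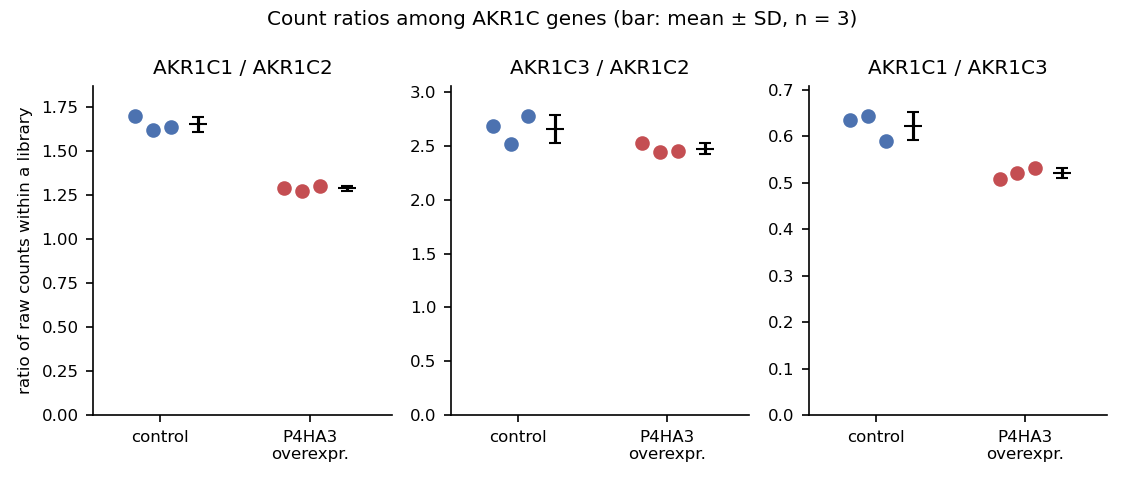
Ratios of raw counts between AKR1C genes within each library (vertical axes from 0), in control (blue) and P4HA3-overexpressing (red) libraries. Points are replicates 1, 2 and 3 from left to right and bars are the mean ± SD of 3 libraries. The ratio of AKR1C1 to AKR1C2 lies at 1.62 to 1.70 in control and 1.27 to 1.30 in overexpressing libraries.

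Because shared reads may be split or dropped between these near-identical genes, AKR1C1 and AKR1C2 were also counted as 1 row. The sum was 14158, 11849 and 12546 counts in control and 11993, 9730 and 11874 counts in overexpressing replicates 1 to 3, so the highest overexpressing library lay above the lowest control library in counts. The sum had a log2 fold change of -0.22 (SE 0.0757) and did not pass (adjusted p = 0.061 by edgeR). It passed in 7 of the 17 alternatives, and adjusted p-values over them ran from 0.00211 to 0.227. These passes include the fits with GC and length trends removed, without (adjusted p = 0.0356 by edgeR) and with the replicate number as a block (0.00211). In both, the trends were removed from the other genes but not from the summed row, which has no GC content or length of its own. The fall of AKR1C1 and the absence of a call for AKR1C2 are therefore values of the counting as deposited, and each gene's own value is uncertain to the extent that reads were shared.

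ALDH1A3 and ALDH1A1 oxidize retinaldehyde to retinoic acid, and both are used as markers of stem-like tumour cells. ALDH1A3 (chr15:100877714-100916626, plus strand) had 1657, 1337 and 1679 counts in control replicates 1 to 3, or 68.0, 62.7 and 68.5 CPM. With overexpression it had 1894, 2319 and 2063 counts, or 81.2, 103.0 and 81.3 CPM. All 3 overexpressing libraries lay above the control libraries, with replicate 2 apart from the other two. The mean went from 66.4 ± 3.23 to 88.5 ± 12.6 CPM (SD, n = 3 each), a ratio of 1.33. This gave a log2 fold change of 0.41 (SE 0.0926, 95% interval 0.21 to 0.62, adjusted p = 0.0149 by edgeR's quasi-likelihood test, Benjamini-Hochberg adjusted).

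Without overexpressing replicate 2 the log2 fold change of ALDH1A3 was 0.29 and still passed (adjusted p = 0.0119). The call was lost without control replicate 1 (adjusted p = 0.0553) or control replicate 2 (0.0942). Over the 17 alternatives the adjusted p-values began at 6.6e-07. The antisense gene ALDH1A3-AS1 covers 1715 of the 5335 exon bases of ALDH1A3. The libraries were made strand-specific, but the strand setting of the counting is not given in the sources used here. Reads of the 2 genes can be told apart only if strand was used.

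ALDH1A1 (chr9:72900671-73080442, minus strand) had 7, 2 and 8 counts in control and 7, 10 and 3 counts in overexpressing replicates 1 to 3. These counts were below the filter on low counts, the groups overlapped, and no difference between them could be detected at this depth.

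ALDH3A1 and ALDH3A2 oxidize medium- and long-chain aldehydes, among them products of lipid peroxidation, and lie near each other on chromosome 17. ALDH3A1, a cytosolic enzyme abundant in cornea (chr17:19737984-19748943, minus strand), had 662, 615 and 611 counts in control replicates 1 to 3, or 27.2, 28.8 and 24.9 CPM. With overexpression it had 521, 439 and 539 counts, or 22.3, 19.5 and 21.2 CPM. All 3 overexpressing libraries lay below the control libraries. The mean went from 27.0 ± 1.95 to 21.0 ± 1.43 CPM (SD, n = 3 each), and the log2 fold change was -0.36 (SE 0.0861, 95% interval -0.55 to -0.17, adjusted p = 0.0189 by edgeR's quasi-likelihood test, Benjamini-Hochberg adjusted).

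This was the least stable of the 4 calls. It was lost without control replicate 1 (adjusted p = 0.0791), control replicate 2 (0.103) or overexpressing replicate 3 (0.0713), and also when the trends on GC content and transcript length were removed from each library. ALDH3A1 has the highest GC content of the members, 60.3% of its canonical transcript, and its log2 fold change after the removal was -0.13 (adjusted p = 0.132). The adjusted p-values over the 17 alternatives began at 0.00354.

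ALDH3A2, the fatty aldehyde dehydrogenase of the endoplasmic reticulum (chr17:19648136-19685760, plus strand), stood at 127.8, 120.7 and 132.6 CPM in control and at 130.5, 133.6 and 134.3 CPM in overexpressing replicates 1 to 3. The groups overlapped. The log2 fold change was 0.06 with a 95% interval of -0.06 to 0.19 (adjusted p = 0.419 by edgeR). The canonical ALDH3A1 and ALDH3A2 transcripts were identical at 68.2% of their aligned bases.

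Removing the GC and length trends was of interest for all members, because the fold changes of all genes followed GC content across genes (Spearman's rho -0.581 over 15107 genes, which are not independent, and 0.001 after the removal). Libraries of the same group also differed in this trend. The deviation of each library from its group mean followed GC content with a rho of 0.226, 0.396 and -0.543 in control replicates 1 to 3. In overexpressing replicates 1 to 3 it was 0.466, -0.496 and 0.08. The part of this spread in the calls was not tested. Between the groups, a trend due to the preparation of the libraries and one due to P4HA3 cannot be told apart here. After the removal, 18.4% of all genes tested were called, 1615 higher and 1174 lower in place of 1416 higher and 1731 lower.

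With the trends removed, 3 members were still called. AKR1B1 stood at a log2 fold change of -0.83 (adjusted p = 2.5e-05), AKR1C1 at -0.53 (adjusted p = 0.00883) and ALDH1A3 at 0.39 (adjusted p = 0.00685, each by edgeR). AKR1C2 moved to -0.15 (adjusted p = 0.279) and AKR1A1 to -0.04 (adjusted p = 0.594).

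**Figure D3:**
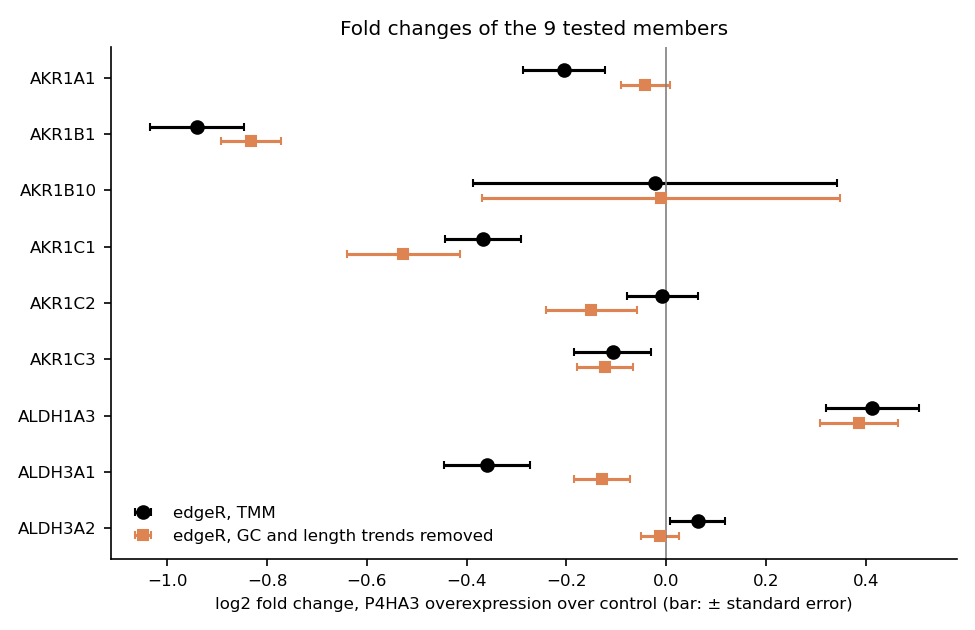
Log2 fold change of the 9 tested members with P4HA3 overexpression over control (horizontal axis), by edgeR with TMM normalization (black circles) and with GC and length trends removed (orange squares). Bars are ± the standard error of the fit to 3 libraries per group. AKR1B1 is farthest from 0 in both, and ALDH3A1 moves from -0.36 to -0.13.

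The weight of AKR1B1 in the families also showed in their summed expression. The 10 members together stood at 4973.4, 4611.3 and 4297.5 CPM in control and 3265.7, 2715.8 and 2946.6 CPM in overexpressing replicates 1 to 3. AKR1B1 made up 69.7 ± 1.08% of this sum in control and 56.5 ± 1.07% in overexpressing cells (SD, n = 3 each). The sum without AKR1B1 was 1400 ± 56.7 CPM against 1294 ± 92.7 CPM, and these ranges overlapped.

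**Figure D4:**
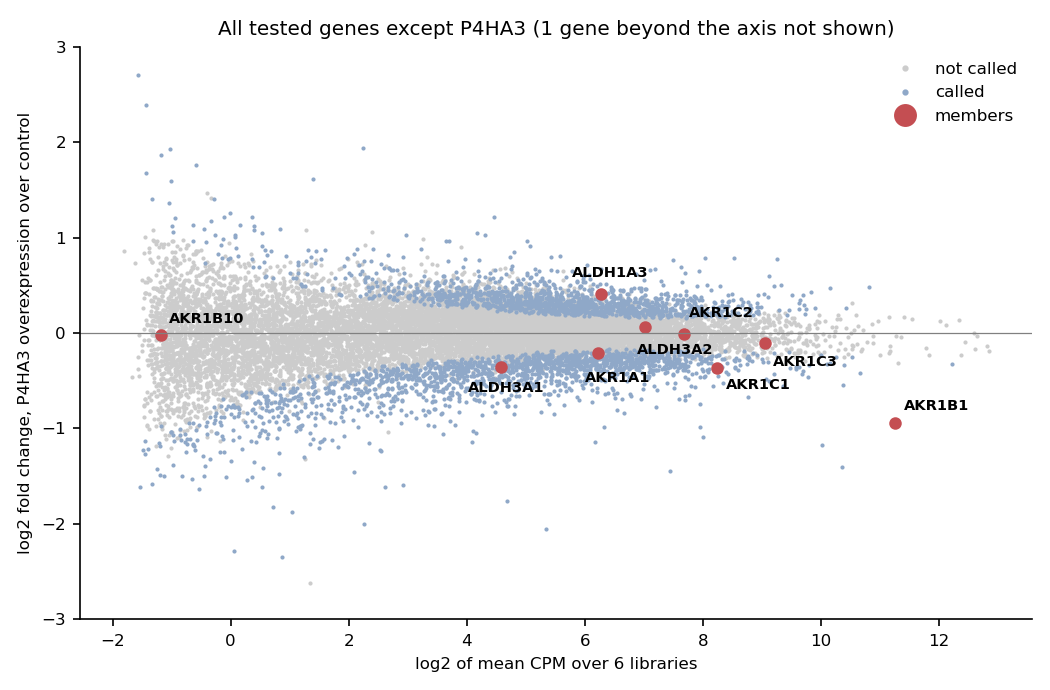
Log2 fold change with P4HA3 overexpression over control (vertical axis) against log2 of the mean CPM over the 6 libraries (horizontal axis) for the genes tested, with called genes in blue, other genes in grey and the 9 tested members in red. P4HA3 and 1 gene beyond a log2 fold change of 3 are left out. AKR1B1 lies apart from genes of like abundance, at -0.94, and the other members lie among the bulk of the genes.

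Over the 6 libraries, the genes outside the families whose log2 CPM followed AKR1B1 most closely were ARFRP1 (Pearson's r = 0.999), HAGHL (0.998) and PANK4 (0.998). This is a description only. The 6 libraries form 2 groups, and 859 of 13362 genes compared reached a correlation of 0.95.

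The rest of both families showed no calls by edgeR with TMM normalization, but some under other settings. Of the 23 other aldo-keto reductase and aldehyde dehydrogenase genes, 14 were tested and 0 were called by edgeR, against 20.8% of all genes tested. By edgeR 6 had an unadjusted p under 0.05, and DESeq2 called 2 and limma-voom 0. Their median log2 fold change was -0.14, and their range was -0.30 for ALDH4A1, a mitochondrial enzyme of proline breakdown, to 0.64 for ALDH1L2, a mitochondrial enzyme of folate metabolism. With GC and length trends removed their median was -0.06, ALDH4A1 stood at -0.09, and 1 gene was called, lower. Without overexpressing replicate 1, 6 of them were called, and without control replicate 3, 3 were. ALDH2, the mitochondrial enzyme that clears acetaldehyde, stood at 86.4 ± 0.986 against 75.5 ± 5.99 CPM (log2 fold change -0.19, adjusted p = 0.0602 by edgeR). ALDH2, ALDH4A1 and ALDH1L2 were chosen after their values were seen.

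Of 24 other carbonyl and alcohol oxidoreductases, 21 were tested, 5 fell and 1 rose, and the median log2 fold change was -0.09. The called genes were 28.6% of those tested, against 20.8% of all genes tested. HSD17B14, a low-abundance hydroxysteroid dehydrogenase, fell by 1.04 on the log2 scale (adjusted p = 0.0328). DHRS13 fell by 0.72 (adjusted p = 0.00202), from 31.5 ± 2.86 to 19.1 ± 1.99 CPM. DHRS1 fell by 0.57 (adjusted p = 0.00156), from 25.2 ± 0.412 to 17.0 ± 0.455 CPM, and DHRS7B by 0.31 (adjusted p = 0.025, all by edgeR). The gene that rose was HSD17B12, of fatty acid elongation (0.20, adjusted p = 0.0489), which was chosen after its values were seen. With GC and length trends removed the calls of HSD17B14 (adjusted p = 0.0925) and HSD17B12 (adjusted p = 0.714) were lost. The fifth fall was that of PTGR1, a reductase of prostaglandins and leukotrienes (-0.27, adjusted p = 0.0177, also chosen after its values were seen), which kept its call with the trends removed (adjusted p = 0.00148). The list then had 1 gene higher and 6 lower, with a median of -0.13. The higher gene, CBR3, and also CBR1 are counted again in the list of NRF2 targets below. CBR1 and CBR3 were chosen after their values were seen. Without control replicate 1, control replicate 2 or overexpressing replicate 3, 2 genes of this list were called in each case.

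Around the retinaldehyde step that ALDH1A3 catalyses, 17 of 23 retinoid pathway genes were tested, 3 fell and 0 rose, and the median log2 fold change was -0.14. This share of 17.6% called was near the 20.8% over all genes tested. DHRS3, which reduces retinaldehyde back to retinol, fell by 0.50 (adjusted p = 0.00542), and RXRB, a retinoid X receptor, fell by 0.23 (adjusted p = 0.0342, both by edgeR). With GC and length trends removed DHRS3 was still called and RXRB was not (adjusted p = 0.553), the list had 1 gene higher and 2 lower, and its median turned to 0.02. The retinoic acid hydroxylases are induced by retinoic acid in many cells. CYP26B1 stood at 12.3 ± 0.334 against 13.4 ± 0.996 CPM (adjusted p = 0.338). CYP26A1 stood at 0.441 ± 0.0451 against 0.434 ± 0.0366 CPM (adjusted p = 0.971) and CYP26C1 at 0.955 ± 0.204 against 0.841 ± 0.0363 CPM (adjusted p = 0.615, all by edgeR). These hydroxylases were chosen after their values were seen, and the part of retinoic acid in their values was not tested. Without control replicate 1 or control replicate 2, 1 gene of this list was called, and without overexpressing replicate 1, 6 were.

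Since AKR1C and AKR1B10 genes are known NRF2 targets, other targets of this factor were examined beside them. Of 28 such genes outside both families 27 were tested, 7 rose and 1 fell, and the median log2 fold change was 0.06. Calls made up 29.6% of the genes tested here and 20.8% of all genes tested (9.36% higher and 11.4% lower). SLC7A11, the cystine importer, rose by 1.03 (adjusted p = 0.00958), OSGIN1, an oxidative stress response gene, by 0.62 (adjusted p = 0.00399), TXNRD1, thioredoxin reductase, by 0.60 (adjusted p = 0.000938) and UGDH, which makes UDP-glucuronate, by 0.53 (adjusted p = 0.00188, all by edgeR). TXNRD1 went from 443 ± 27.5 to 673 ± 40.3 CPM with no overlap. With GC and length trends removed 9 genes of the list were called, each higher, and the median was 0.09. In the same libraries AKR1C1 fell and AKR1C2, AKR1C3 and AKR1B10, the last at 6 to 13 counts, did not pass the test. The part of NRF2 in the values of these members and of the listed targets was not tested. NQO1, chosen after its values were seen, stood at 2561 ± 99.9 against 2881 ± 192 CPM (log2 fold change 0.17, adjusted p = 0.11). Without overexpressing replicate 1, 14 genes of this list were called, and without control replicate 2, 5 were. Over all genes, 5530 and 534 were called without these libraries.

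Of the 9 NRF2 regulators all were tested, 1 rose and 2 fell, or 33.3% called against 20.8% of all genes tested. MAFF and MAFK, small MAF partners of NRF2, fell by 0.62 (adjusted p = 0.00232) and 0.28 (adjusted p = 0.0152), and CUL3, the ubiquitin ligase scaffold that works with KEAP1, rose by 0.30 (adjusted p = 0.0222, all by edgeR). NFE2L2, which encodes NRF2, had a log2 fold change of 0.22 (adjusted p = 0.116), and KEAP1, its inhibitor, one of 0.00 (adjusted p = 0.988). With GC and length trends removed the list went to 3 genes higher and 1 lower. KEAP1 was then higher by 0.21 (adjusted p = 0.00235), MAFG, another small MAF protein, by 0.21 (adjusted p = 0.0129) and SQSTM1, an adaptor that binds KEAP1, by 0.30 (adjusted p = 0.000538), MAFF was still lower, and the calls of CUL3 and MAFK were lost. MAFG and SQSTM1 were chosen after their values were seen. Without control replicate 1, control replicate 2 or overexpressing replicate 3, 1 regulator was called, and without overexpressing replicate 1, 5 were.

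**Figure D5:**
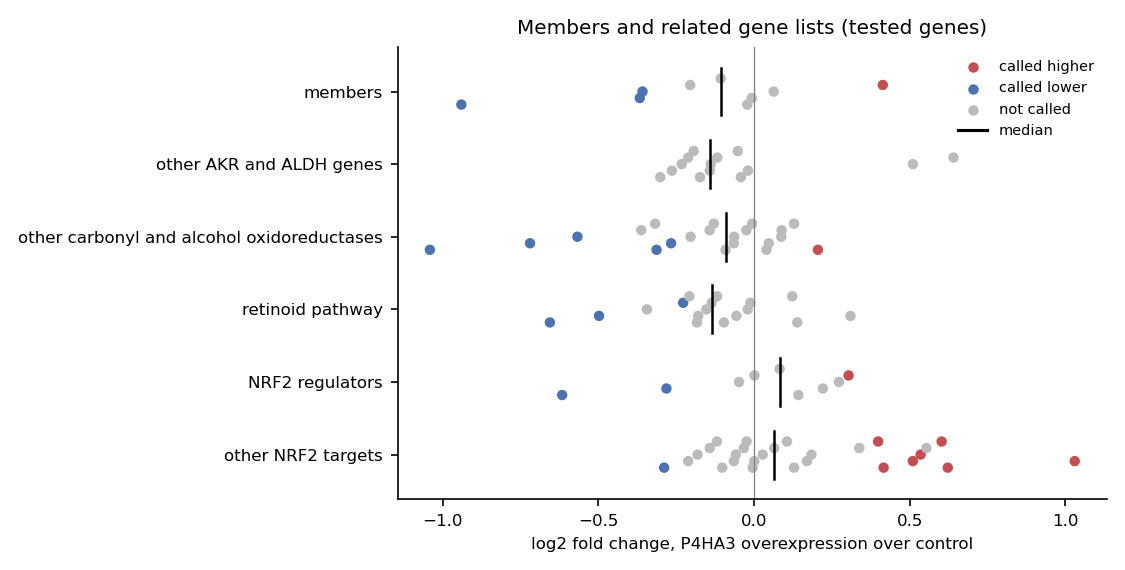
Log2 fold change with P4HA3 overexpression over control (horizontal axis) of the tested genes of each list, with 1 point per gene, red for called higher, blue for called lower and grey for not called, and a black line at the median. The members have 1 red and 3 blue points, and the other NRF2 targets have 7 red and 1 blue.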

How the data were processed

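According to the study's methods, the authors prepared strand-specific (dUTP) libraries of poly-A RNA, sequenced paired ends on a DNBSEQ-T7, aligned them to GRCh38 (annotation Ensembl104) with STAR and counted with HTSeq. The submitters' processing notes name HISAT2 in place of STAR. Tool versions and the strand setting of the counting are not given in the sources used here. The deposited values are raw counts, with 1 column per library.

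The members and gene lists were chosen with earlier results of these data known. Testing used edgeR 4.0.16 in R 4.3.3, with filterByExpr with a minimum count of 10 (15130 genes kept), TMM normalization and the two-sided quasi-likelihood test (glmQLFit, glmQLFTest) with Benjamini-Hochberg adjustment, group being the only term. The standard error is the log2 fold change over the root of F. CPM are TMM-scaled. Symbols, lengths and GC content came from GENCODE v44, a later release, which matched 60463 of 60664 identifiers. The genes named are all members, P4HA3, NFE2L2, KEAP1, at most the 4 largest changes among called genes of each other list, and the 3 genes that correlate best with the member of smallest p, apart from those said to be chosen after their values were seen and the marker genes. Some genes of the lists are not reported here by name.

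Libraries held 21773488 to 24939948 counts, and the common biological coefficient of variation was 7.66%. Libraries within a group differed beyond sampling noise (chi-square per degree of freedom 5.22 to 18). Alternatives were DESeq2 1.42.0, limma-voom (limma 3.58.1), other normalizations and filters, library sizes without P4HA3, a replicate block, leaving out each library, AKR1C1 and AKR1C2 as 1 row, and an offset that removes each library's smooth trend on GC content and transcript length (mgcv 1.9.3). On simulated counts for 15130 genes, the test recovered 83% of 100 genes changed by a log2 of 1. It recovered 61% of 100 changed by 0.5. Wrong signs numbered 0, and 8.28% of its calls were false. In the deposited counts 20.8% of genes were called, and fold changes followed GC content (Spearman's rho -0.581). Whether the recovered and false shares hold for such counts was not tested.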

Additional observations from a re-analysis of the deposited data

How the results depend on the processing

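The 4 calls among the members were also 4 with DESeq2, limma-voom, every other normalization and filter tried, and P4HA3 left out of the library sizes. They were 3 with GC and length trends removed and 3 with AKR1C1 and AKR1C2 as 1 row. Leaving out each library in turn gave 1 to 6 calls among members, 1 without control replicate 1 or control replicate 2, 2 without overexpressing replicate 3 and 6 without overexpressing replicate 1, and 534 to 5530 among all genes (781, 534, 904 and 5530 for these 4 libraries in the order control 1, control 2, overexpressing 3 and overexpressing 1). The same range was 0 to 6 for the other family genes, 2 to 9 for the other oxidoreductases, 1 to 6 for the retinoid pathway, 5 to 14 for the NRF2 targets and 1 to 5 for the NRF2 regulators. Calls among the other family genes numbered 2 with DESeq2, 3 without a filter and 1 with GC and length trends removed, and calls among the NRF2 regulators numbered 5 without a filter. The log2 fold change of AKR1C1 and AKR1C2 summed was -0.22 with DESeq2 and -0.21 without a filter, each past the threshold. It was -0.29 to -0.16 with a library left out. With the GC and length offset it was -0.22 and passed, but the offset corrected the other genes only. The summed row has no GC content or length of its own, so its value without these trends was not computed. The cause of these shifts was not tested. P4HA3 ran from 9.06 to 9.24 with a library left out.

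Whether the replicate numbers pair the samples was not settled. Deviations of same-numbered libraries correlated at 0.33, -0.08 and 0.02, and 3 of 6 libraries correlated best with their own number. With the number as a block, 5 members (AKR1A1 in addition, lower) and 4313 genes were called, 4 of them other family genes, and the AKR1C1 and AKR1C2 sum was -0.22. With the block and the GC and length offset together, 4 members (AKR1C3 in place of ALDH3A1) and 3 other family genes were called. The sum, to which the offset was again not applied, was -0.22.

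Members near 0 changed sign. AKR1C2 was at 0.0081 by library size only, 0.0031 without a filter, and 0.0207, 0.0103, 0.045 and 0.0041 without control replicate 1, control replicate 2, overexpressing replicate 2 and overexpressing replicate 3, with a range of -0.0736 to 0.045 with a library left out. AKR1B10 was at 0.0507 with limma-voom and at 0.1427, 0.1619, 0.0303 and 0.0517 without the same libraries, with a range of -0.3243 to 0.1619. ALDH3A2 was at -0.0126 with GC and length trends removed and at -0.0124 with the block as well. None of these passed the test.

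Genes of a few counts, AKR1B10 and ALDH1A1, are limited by depth, and AKR1C1 and AKR1C2 by shared reads.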
